A study of Danio rerio with 6 samples.

Results

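The solute carriers are membrane proteins that move amino acids, sugars, ions, metals, nucleotides and metabolites across the plasma membrane and the membranes of organelles. Members of a numbered family share ancestry and, for the most part, the kind of substrate they carry. In the embryo, vessels and blood cells draw on several of them. Iron importers feed heme synthesis in red cells, amino acid exchangers supply growing cells, and the mitochondrial carriers link the matrix to the cytosol. A probe was counted here when its RefSeq accession gave a symbol beginning with slc and a number, or when its description named a solute carrier family. The rule found 152 probes of 86 genes, against 7726 named probes of 4781 symbols among 14067 zebrafish probes. Of the 152, 139 were found by symbol, 69 by description and 56 by both. The names of 12 probes could only be read from the description, and 1 member found that way, nherf1a, encodes a scaffold that regulates sodium-proton exchangers and is not itself a carrier. A probe of slc20a1a carried a flag and was left out, so 151 probes were analysed.

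The study followed vascular development of the zebrafish with 6 single-colour arrays, 1 per condition, from embryos kept at 28 °C and given no treatment. Of these, 2 arrays held RNA of embryos taken whole at 18 or 24 hours post fertilisation (hpf). Another 3 held GFP-positive cells sorted from Tg(Fli1:EGFP) embryos at 18, 24 and 28 hpf, and these are called Fli1 cells below. The last held GFP-positive cells sorted from Tg(Flk:GRCFP) embryos, called Flk cells. Besides endothelium, the fli1 promoter is active in blood cells and in some neural crest, so the Fli1 cells are no pure endothelium, and Flk is an older name of a receptor for vascular endothelial growth factor. The Flk sample is dated to 18 hpf by its title and by the design of the series, but to 24 hpf by its description, and 18 hpf was used. The RNA was copied in 2 rounds before labelling with Cy3. How many embryos or clutches went into an array is not given, and each condition rests on 1 array with no replicate.

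A probe counted as above background on an array when its spot was brighter than the 95th percentile of that array's Arabidopsis control spots. The share of 13999 probes that passed ran from 24.7% (Fli1 cells, 18 hpf) to 42.6% (Flk cells). The 6 markers of endothelium found had a summed log2 intensity of 10.86 to 11.08 in whole embryos and 11.73 to 12.37 in sorted cells. Of the 6, 5 passed on at least 1 array, and the sums include the marker that did not. Among them kdrl passed on all 6 arrays, fli1 on the Flk array alone and flt4 on none. The sums lean on the brightest markers. In Fli1 cells at 18 hpf these were tal1 and lmo2, at 10.55 and 10.31, against 9.65 and 8.84 in whole embryos of that stage. There kdrl gave 9.04 against 8.13. At 28 hpf tal1 gave 11.59, tek 9.84, kdrl 9.28 and lmo2 8.28. The 9 erythroid markers found, of which 8 passed, had sums of 11.38 and 13.92 in whole embryos at 18 and 24 hpf. In sorted cells these sums were 13.30 to 16.60. Sums of the 7 yolk, liver and gut markers were 14.24 and 15.01 in whole embryos but 10.62 to 10.92 in sorted cells, and those of the 11 periderm and epidermis markers were 16.57 and 17.15 against 14.27 to 14.92. Their part in the results below was not tested.

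Of the 151 solute carrier probes, 94 (62.3%) passed on at least 1 array, against 54.3% of all probes, and 32 passed on all 6. The 94 belonged to 62 genes, and 24 genes passed on no array. By array, the number above was 71 and 57 in whole embryos at 18 and 24 hpf, 41, 55 and 66 in Fli1 cells at 18, 24 and 28 hpf, and 78 in Flk cells. The Fli1 cells of 18 hpf were lowest and the Flk cells highest, as among all probes. The largest class was the mitochondrial carriers with 49 probes, of which 30 passed somewhere and 15 on all 6 arrays. A single gene, slc25a5, supplied 19 of the 49, 14 of the 30 and 12 of the 15, and the 30 belonged to 13 genes. Amino acid and neurotransmitter carriers had 28 probes, 17 of them above on some array, and inorganic ion carriers 19, with 12. Carriers of iron, zinc, copper and other metals had 16, with 12. Nucleoside and sugar-nucleotide carriers, a class in which family 37 was also placed, had 17, with 8. Of these 8, 3 read slc37a2, an exchanger of glucose 6-phosphate, and 2 read slc37a1 of the same family. Monocarboxylate carriers had 10, with 5. The other classes had 7 probes above the limit for organic ions, lipids, vitamins and peptides, 2 for sugars and 1 for nherf1a. Probes near the limit carry little: on the array of whole embryos at 18 hpf the dimmest solute carrier probe above it was nherf1a at a log2 intensity of 8.11 and the brightest below it slc37a1 at 8.10.

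**Figure D1:**
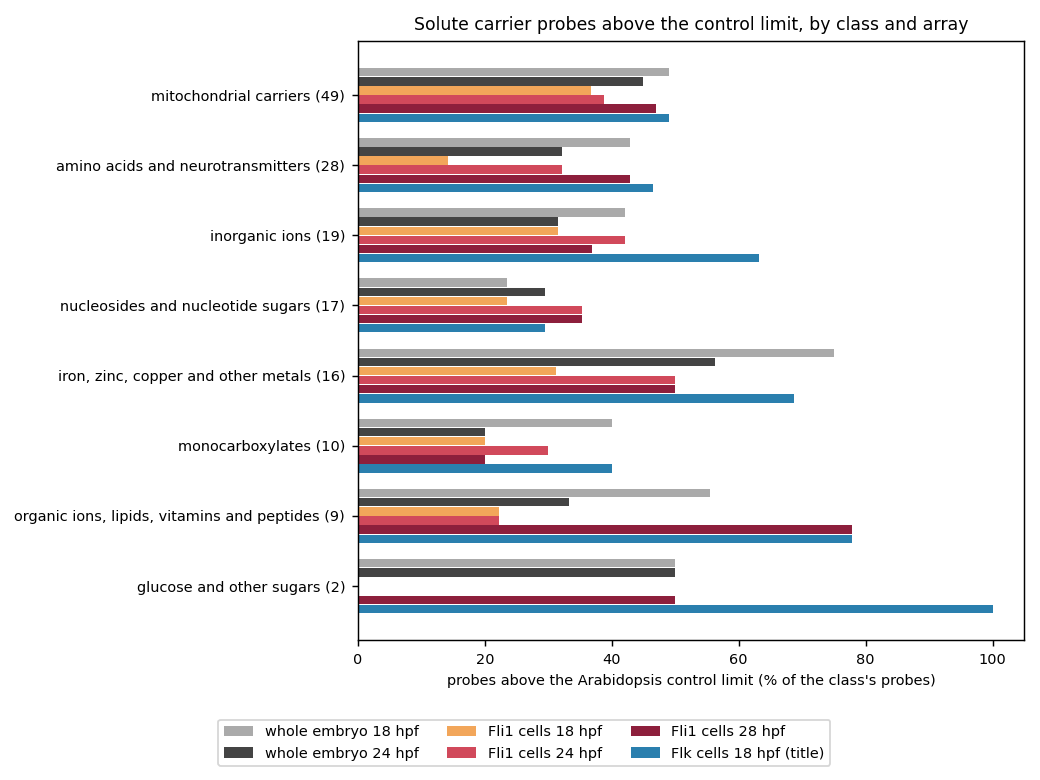
Percent of each class's solute carrier probes (number of probes in brackets) that exceeded the Arabidopsis control limit, on each of the 6 arrays. Metal carriers reached the limit for 12 of 16 probes in whole embryos at 18 hpf and for 5 of 16 in Fli1 cells at 18 hpf.

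Sorted cells (4 arrays) were first set against whole embryos (2 arrays) with limma over the 7602 probes above the limit on at least 1 array. None of the 94 solute carrier probes tested was called after Benjamini-Hochberg adjustment. Of all probes, 0.0658% were called higher and 0.842% lower. At an unadjusted p under 0.05, 6 of the 94 had a positive difference and 6 a negative one (6.38% each), against 8.0% and 10.6% of all probes. The smallest adjusted p of limma among them was 0.0649, for a probe of slc25a3b, the mitochondrial phosphate carrier. It had a log2 intensity of 9.44 and 8.97 in whole embryos at 18 and 24 hpf, of 7.68, 7.88 and 7.56 in Fli1 cells at 18, 24 and 28 hpf, and of 7.96 in Flk cells. It was above the limit only in whole embryos, so the sorted side is known only as a bound: whole embryos, with a mean of 9.20 against 7.77, were at least 1.92-fold higher than sorted cells. Of the 94 probes, 28 were above the limit in only 1 group. The slc3a2a probe followed, at -1.55 ± 0.30 and an adjusted p of 0.0714 in limma. Both passed the threshold when arrays were scaled to their 75th percentile, with adjusted p of 0.0421 for slc25a3b, whose sorted values lie below the limit, and 0.0252 for slc3a2a in limma. The authors' scaled values added a probe of slc25a20 (adjusted p = 0.0286 in limma).

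The median difference of the solute carrier probes was 0.17 on the log2 scale, against 0.04 for all probes tested. In 22 of 94 (23.4%) the 4 sorted arrays all lay above both whole-embryo arrays, against 20.9% of all probes. In 9 (9.57%) they all lay below, against 16.0%. With 75th percentile scaling 24 of 94 (25.5%) lay above, against 23.0% of all probes, and 13 (13.8%) below, against 18.2%. With the authors' scaled values 6 of 83 lay above (8.61% of all probes) and 14 below (20.4% of all probes). Those values were raised to a common floor, the highest of the 6 control limits. Dim arrays can therefore tie there and count as overlapping. Of the classes, the inorganic ion carriers had the highest median, 0.49 over 12 probes with 10 positive, and all 7 probes for organic ions, lipids, vitamins and peptides were positive, with a median of 0.22 (4 of 5 positive and a median of 0.06 with the authors' values). The metal carriers divided evenly, 6 and 6, with a median of -0.02. The mitochondrial carriers had 21 of 30 positive and a median of 0.21, which turned to -0.07 with the authors' values, where 11 of 28 were positive. Of the 30, 14 read the same gene, slc25a5, so this median is largely that of 1 gene's probes. The inorganic ion carriers kept a positive median there, 0.21 over 11 probes. Their 12 probes as first normalized belonged to 8 genes, with 3 of slc20a1b and 2 each of slc9a7 and slc9a8.

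**Figure D2:**
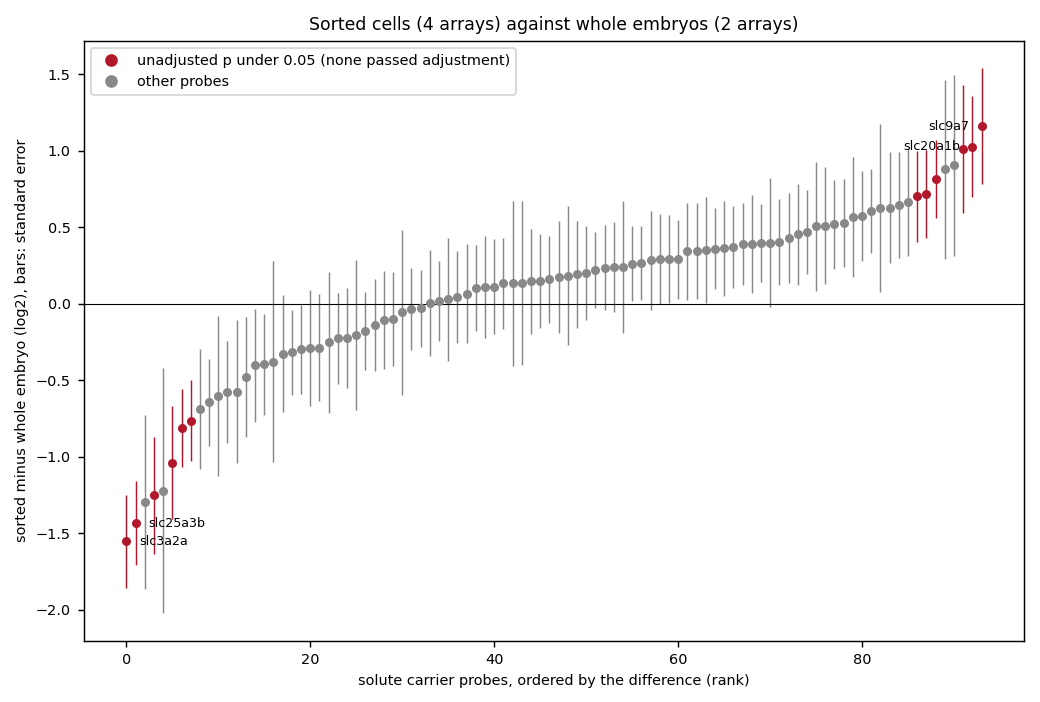
Difference between sorted cells and whole embryos on the log2 scale with its standard error from limma, for the 94 solute carrier probes tested, ordered by size. The 12 red probes had an unadjusted p under 0.05, and none passed the adjustment. For the 28 probes with 1 group wholly below the limit, the plotted difference includes values below it.

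For pairs of arrays, a difference of 2-fold or more was counted where the brighter array was above the limit. Where the dimmer side was below it, the fold is a lower bound. Over 7 pairs 32 such differences were found, 15 higher and 17 lower, on 20 probes of 16 genes. Of these 32, 16 were also found under each of 3 other treatments of the intensities (75th percentile scaling, the authors' scaled values, no background correction), 11 lower and 5 higher. Control spots, which should not differ between arrays, differed with an SD of 0.29 to 0.47 on the log2 scale before quantile normalization.

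In Fli1 cells at 18 hpf against whole embryos of that stage, 5 of 74 solute carrier probes (6.76%) were higher and 1 (1.35%) was lower, against 9.92% and 8.02% of all probes. With 75th percentile scaling the counts were 1 and 12 of 74, against 3.83% and 18.7% of all probes, and with the authors' scaled values 0 and 16 of 62, against 1.71% and 28.7%. The median of all probes tested was -0.14 as first normalized, -0.31 with the percentile and -0.39 with the authors' values. The array of these cells had the fewest probes above the limit. At 24 hpf 0 of 66 were higher and 3 (4.55%) lower, against 3.88% and 6.16%, and both other scalings gave 7 lower, where 9.73% (75th percentile) and 14.5% (authors' values) of all probes were lower. Flk cells against whole embryos at 18 hpf had 2 of 86 higher (2.33%) and 3 lower (3.49%), against 5.6% and 6.09%. The authors' values gave 1 and 7 of 60, against 4.96% and 17.5%, with the median of all probes at -0.18 in place of 0.05.

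Flk against Fli1 cells at 18 hpf differed by 2 probes higher and 2 lower of 80 (2.5% each), against 2.89% and 3.42% of all probes, and by none lower in either other scaling, where 1.06% and 0.645% of all probes were lower. Fli1 cells at 24 against 18 hpf had 0 higher and 3 lower of 60 (5.0%), against 3.94% and 3.76%. The authors' values turned this to 8 higher and 0 lower of 51, against 16.5% and 0.899%. Fli1 cells at 28 against 24 hpf had 4 higher and 4 lower of 75 (5.33% each), against 7.52% and 10.8%, and 1 and 9 in both other scalings, where 1.83% and 14.6% (75th percentile) and 2.2% and 16.6% (authors' values) of all probes were called. Whole embryos at 24 against 18 hpf had 2 higher and 1 lower of 73 (2.74% and 1.37%), against 5.02% and 3.64%. The median of the solute carrier probes for Fli1 cells at 28 against 24 hpf was 0.34, against 0.14 for all probes. The pairs share arrays. As first normalized, no share for the solute carriers exceeded that of all probes except among 3 lower calls of Fli1 cells at 24 against 18 hpf. Other settings had further exceptions. With 75th percentile scaling, 7 of 66 were lower in Fli1 cells against whole embryos at 24 hpf, above the 9.73% of all probes.

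**Figure D3:**
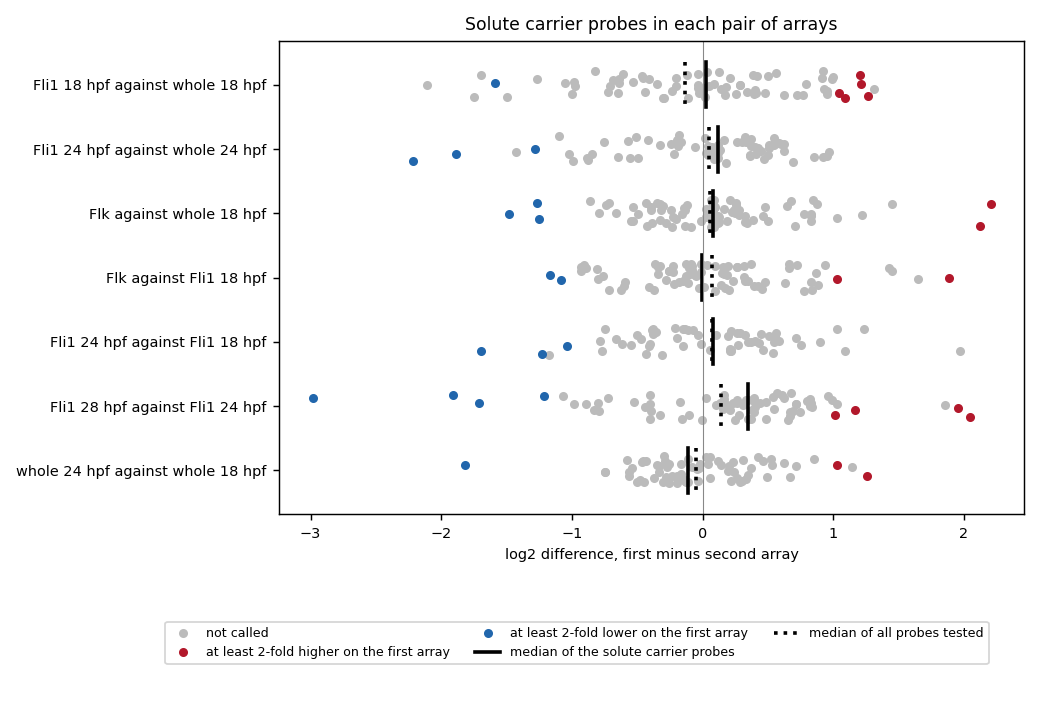
Log2 difference of every solute carrier probe tested in each of the 7 pairs of arrays (points, with vertical scatter added), the median of these probes (solid bar) and of all probes tested (dotted bar). Grey points past 1 were below the control limit on the dimmer side, so that their bound stayed under 2-fold.

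Among the amino acid carriers, slc3a2a encodes the heavy chain that brings light chains such as those of family 7 to the cell surface. Its log2 intensity was 9.80 and 10.05 in whole embryos at 18 and 24 hpf, 8.22, 8.76 and 7.97 in Fli1 cells at 18, 24 and 28 hpf, and 8.53 in Flk cells. All 4 sorted arrays lay below both whole-embryo arrays. The probe was at least 2.38-fold lower in Fli1 cells at 18 hpf, 2.43-fold lower at 24 hpf and 2.41-fold lower in Flk cells. Each of these held under the 3 other treatments, and Flk cells were 2.85-fold lower when set against whole embryos of 24 hpf. The sums of the yolk, liver and gut markers and of the periderm markers were also lower on the sorted arrays. In Fli1 cells at 24 hpf 7 of 10 periderm markers tested were 2-fold lower and 1 higher, against 6.16% and 3.88% of all probes. At 18 hpf 4 of 9 were lower and 1 higher, against 8.02% and 9.92%. Of 12 muscle markers 6 were lower at 24 hpf and none higher, and of 10 at 18 hpf 1 was lower and 2 higher. The part of these markers in the slc3a2a difference was not tested. In bulk RNA, fewer cells of a type and less RNA per cell cannot be told apart.

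A probe of slc1a3a, a glutamate and aspartate transporter known from glia, showed 8.99 and 10.25 in whole embryos, 9.91, 9.60 and 7.69 in Fli1 cells at 18, 24 and 28 hpf, and 9.76 in Flk cells. It was 2.39-fold higher in whole embryos at 24 than at 18 hpf, and at least 2.54-fold lower in Fli1 cells at 28 than at 24 hpf. Both differences were called under all 3 other treatments as well. The other slc1a3a probe was below the limit on every array. The slc17a9b probe, for a vesicular nucleotide transporter of a family placed in this class, stood at 9.47 in Fli1 cells at 18 hpf and at 8.02 to 8.59 on the other 5 arrays. Its 2.30-fold excess over whole embryos at 18 hpf was not called with the authors' values. Its 2.25-fold excess over Flk cells and its excess of at least 2.32-fold over Fli1 cells at 24 hpf were called in neither other scaling. Flk cells differed from Fli1 cells of 24 hpf by 0.06 on the log2 scale, with no call. The glutamine carrier slc38a5b gave 8.03 and 8.52 in whole embryos, 7.22, 8.31 and 9.27 in Fli1 cells from 18 to 28 hpf, and 8.86 in Flk cells, with no 2-fold call. No other amino acid carrier was called in any pair.

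**Figure D4:**
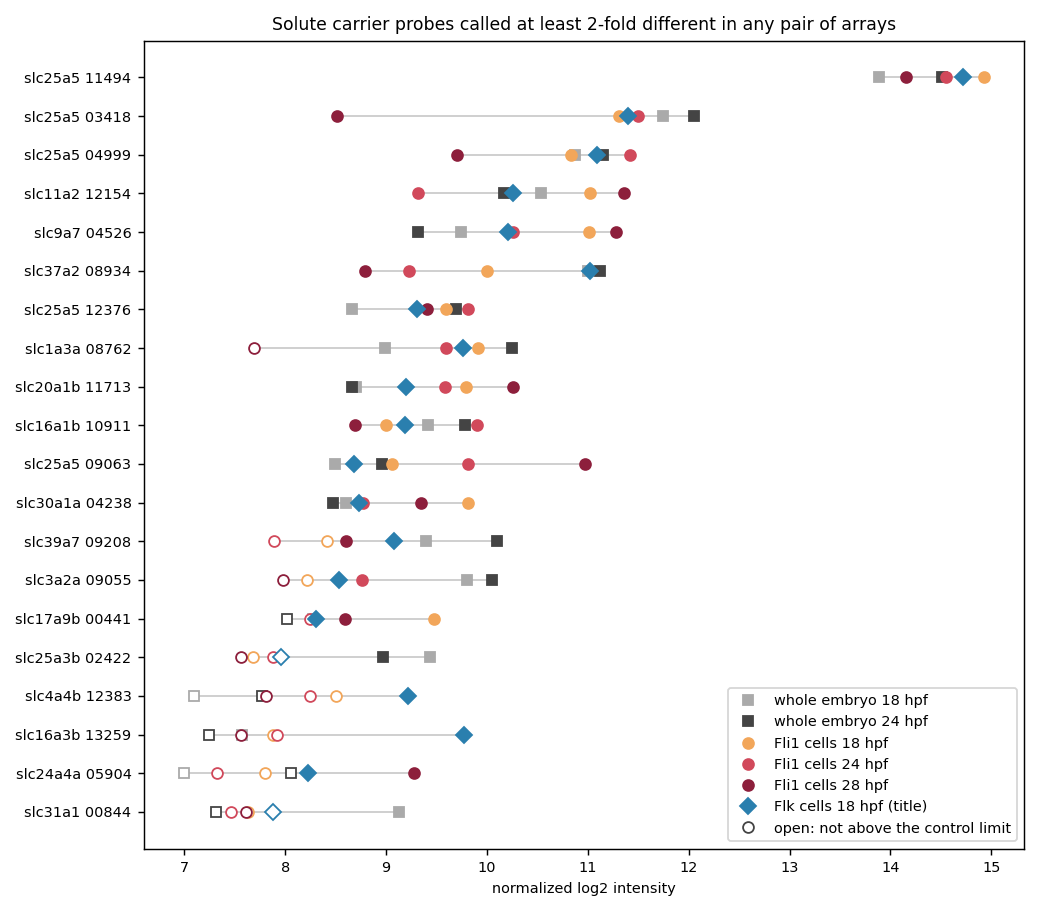
Normalized log2 intensity on each of the 6 arrays of the 20 solute carrier probes that differed at least 2-fold in any pair, labelled by gene and probe number. Open symbols did not exceed the control limit. The slc3a2a and slc25a3b probes lay lower in every sorted sample than in either whole-embryo sample, and slc16a3b lay above the limit in Flk cells alone.

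Among the iron carriers, slc11a2 is the importer of ferrous iron whose loss causes anaemia in zebrafish. Its brighter probe had a log2 intensity of 10.54 and 10.17 in whole embryos, 11.02, 9.32 and 11.36 in Fli1 cells at 18, 24 and 28 hpf, and 10.26 in Flk cells. The array of Fli1 cells at 24 hpf was the lowest of the 6. It lay 3.25-fold below that of 18 hpf and 4.13-fold below that of 28 hpf, and the second difference held under all 3 other treatments, at 2.67-fold with the percentile. The first was 2.11-fold with the percentile and was not called with the authors' values. Against whole embryos of 18 hpf this probe was higher in Fli1 cells as first normalized, with no call. The difference turned to -0.75 on the log2 scale with the percentile and was called lower with the authors' values, so its direction is not settled. At 24 hpf both other scalings called it lower, at -1.26 (percentile) and -1.3 (authors' values). Of all probes, 9.73% and 14.5% were lower there. The other slc11a2 probe gave 8.61 and 8.26 in whole embryos, 8.08, 8.28 and 8.68 in Fli1 cells, and 8.94 in Flk cells. It did not have the low value at 24 hpf, so the 2 probes disagree. The erythroid markers summed to 14.48, 16.16 and 16.60 in the same 3 arrays of Fli1 cells. These sums are led by hbae1.1 and hbae3, the brightest of the markers on each of these arrays. The part of red cells in the slc11a2 values was not tested. slc40a1, the iron exporter ferroportin, lay between 8.02 and 8.74 on all 6 arrays, and slc48a1b, a heme transporter, between 8.22 and 9.08, with no call in any pair. The mitochondrial iron importer slc25a28 gave 7.95 and 7.97 in whole embryos, both below the limit. Sorted cells gave 8.23 to 8.90, above the limit on 3 arrays, also with no call. Their mean was at least 1.32-fold higher. With the authors' values the groups overlap, because both then hold arrays at the common floor.

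Of the zinc carriers, slc39a7 releases zinc from the endoplasmic reticulum. Its log2 intensity was 9.39 and 10.10 in whole embryos, 8.42, 7.89 and 8.60 in Fli1 cells at 18, 24 and 28 hpf, and 9.08 in Flk cells. All sorted arrays lay below the whole-embryo arrays, by -1.25 ± 0.38 on the log2 scale (adjusted p = 0.185 in limma). At 24 hpf Fli1 cells were at least 3.58-fold lower than whole embryos. The other treatments also called it, with bounds from 3.39-fold to 4.55-fold. slc30a1a, which exports zinc at the plasma membrane, gave 8.60 and 8.47 in whole embryos, 9.81, 8.77 and 9.34 in Fli1 cells, and 8.73 in Flk cells. Its value in Fli1 cells at 18 hpf was 2.32-fold above whole embryos, 2.12-fold above Flk cells and 2.06-fold above Fli1 cells at 24 hpf, and none of these was called with either other scaling. Flk cells and Fli1 cells of 24 hpf differed by -0.05 on the log2 scale, with no call. The copper importer slc31a1 was above the limit in whole embryos at 18 hpf alone, at 9.13, and at 7.31 to 7.88 on the other arrays. It was thus at least 2.10-fold lower in whole embryos at 24 hpf and at least 2.22-fold lower in Flk cells, both against whole embryos of 18 hpf. Against whole embryos of 24 hpf the Flk value was 0.57 higher on the log2 scale, with both below the limit and no call. The difference between whole embryos was not called without background correction.

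The mitochondrial carriers were led by slc25a5, the exchanger that passes ADP into the matrix and ATP out. The array held 19 probes for it, 15 named by accession and 4 by description, which are not replicates of a condition. Of these, 12 were above the limit on all 6 arrays, 2 on some and 5 on none. Against whole embryos of 18 hpf, Fli1 cells had a positive difference in 10 of 13 probes and a negative one in 3, with a median of 0.40 on the log2 scale and 1 called higher. At 24 hpf 8 were positive and 5 negative, with a median of 0.04 and no call. These directions turned with the scaling. At 18 hpf 4 were positive and 9 negative in both other scalings, with medians of -0.70 (75th percentile, 4 called lower) and -0.96 (authors' values, 6 called lower), and at 24 hpf the medians were -0.20 and -0.27 with no call. Of all probes, 9.92% were higher at 18 hpf as first normalized, and 18.7% (75th percentile) and 28.7% (authors' values) were lower there. Probe 11494 gave 13.89 and 14.51 in whole embryos, 14.93, 14.55 and 14.16 in Fli1 cells at 18, 24 and 28 hpf, and 14.72 in Flk cells. Its 2.06-fold excess at 18 hpf turned to -0.70 on the log2 scale with 75th percentile scaling and to -0.96 with the authors' values, so its direction is not settled.

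From 24 to 28 hpf the slc25a5 probes of Fli1 cells parted. Probe 03418 gave 11.75 and 12.06 in whole embryos, 11.31, 11.50 and 8.51 in Fli1 cells, and 11.40 in Flk cells, and was 7.92-fold lower at 28 than at 24 hpf. Probe 04999 gave 10.87 and 11.15 in whole embryos, 10.83, 11.41 and 9.70 in Fli1 cells, and 11.09 in Flk cells, a 3.28-fold difference in the same direction. Both held under all 3 other treatments. Probe 09063 went the other way, from 9.81 to 10.98 and so 2.25-fold higher, but was not called in either other scaling. Of 14 slc25a5 probes tested in that pair, 5 differences were positive and 9 negative, with a median of -0.36, 1 call higher and 2 lower. Both other scalings gave 3 positive differences, no call higher and 7 lower, with medians of -0.90 and -1.14. Of all probes in that pair, 7.52% were higher and 10.8% lower as first normalized. In the other scalings 14.6% (75th percentile) and 16.6% (authors' values) were lower. In whole embryos 12 of 13 had a positive difference at 24 against 18 hpf, with a median of 0.46 (0.33 and 0.27 in the other scalings), and 1 of them, probe 12376, was 2.04-fold higher. All these probes read the same gene symbol, and which transcript each one binds was not tested.

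**Figure D5:**
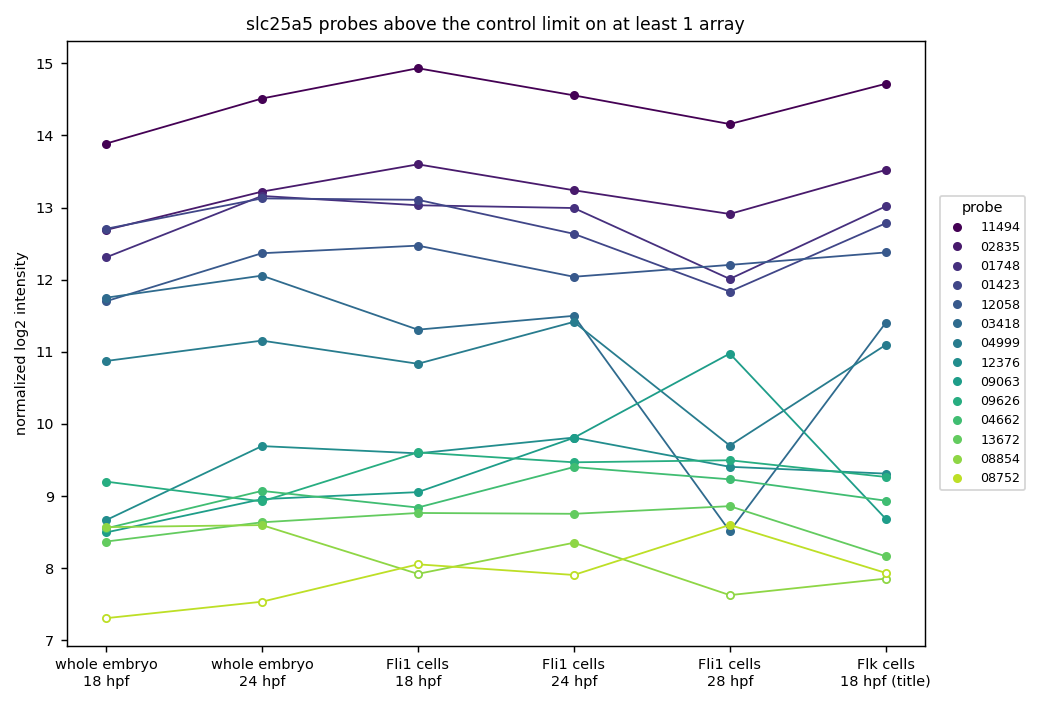
Normalized log2 intensity on the 6 arrays of the 14 slc25a5 probes above the control limit on at least 1 array. Each line is a probe, open points did not exceed the limit, and probes 03418 and 04999 drop in Fli1 cells at 28 hpf while probe 09063 reaches 10.98 there.

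The probes of slc25a3b also differed among themselves as first normalized. Probe 02422, named above, was lower in Flk cells by at least 2.75-fold against whole embryos of 18 hpf. The 3 other treatments also called it, with bounds from 2.44-fold to 3.29-fold. Against whole embryos of 24 hpf its bound was 1.99-fold. Probe 12084 gave 10.74 and 10.00 in whole embryos, 10.54, 10.16 and 11.15 in Fli1 cells, and 10.32 in Flk cells, where the groups overlap. A further probe for slc25a3, whose copy the description does not name, gave 9.53 and 9.49 in whole embryos, 8.54, 9.08 and 9.90 in Fli1 cells, and 9.37 in Flk cells. In both other scalings all sorted arrays lay below whole embryos for this probe. It and probe 12084 were then called lower in Fli1 cells at 18 hpf. The log2 differences were -1.26 and -1.36 with the percentile and -1.35 and -1.64 with the authors' values. Of all probes, 18.7% and 28.7% were lower there. The carnitine carrier slc25a20, which brings fatty acids into the matrix, had 3 probes above the limit, of which 2 were lower on all 4 sorted arrays, or 1 of them with the authors' values. Probe 03553 gave 9.46 and 9.68 in whole embryos, 7.77, 8.80 and 8.96 in Fli1 cells and 8.60 in Flk cells, a difference of -1.04 ± 0.37 (adjusted p = 0.218 in limma). Probe 01415 gave a difference of -0.03 ± 0.25. slc25a11, the exchanger of oxoglutarate and malate, lay between 8.45 and 8.93 on all 6 arrays.

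Among the ion carriers, slc9a7 is a sodium-proton exchanger of the trans-Golgi network. Its brighter probe gave 9.74 and 9.31 in whole embryos, 11.01, 10.26 and 11.28 in Fli1 cells at 18, 24 and 28 hpf, and in Flk cells a value 0.46 above whole embryos of 18 hpf, so that all sorted arrays lay above both whole-embryo arrays. The limma difference was 1.16 ± 0.38, with an adjusted p of 0.200. At 18 hpf Fli1 cells exceeded whole embryos 2.41-fold, and the probe was 2.02-fold higher in Fli1 cells at 28 than at 24 hpf. In the other scalings the first difference was 0.31 and 0.07 on the log2 scale and the second 0.31 and 0.33, and neither was called. The second probe, 13707, differed by 0.11 ± 0.31, and its groups overlap.

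slc20a1b, which brings phosphate into the cell with sodium, had 3 probes above the limit. Probe 11713 gave 8.70 and 8.66 in whole embryos, 9.79, 9.58 and 10.25 in Fli1 cells and 9.20 in Flk cells, all sorted arrays above both whole-embryo arrays. Its limma difference was 1.03 ± 0.33, with an adjusted p of 0.198. Probe 08186 was below the limit in both whole-embryo arrays and above it on all 4 sorted arrays, which had a mean of 8.82, at least 1.66-fold higher (adjusted p = 0.192 in limma). Probe 11713 was 2.13-fold higher in Fli1 cells at 18 hpf, but by 0.72 and 0.47 on the log2 scale in the other scalings, where it was not called. The groups of the third probe, 06169, overlap, except with 75th percentile scaling.

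The bicarbonate carrier slc4a4b was above the limit in Flk cells alone, at 9.22, and at 7.10 and 7.77 in whole embryos and 8.50, 8.24 and 7.81 in Fli1 cells. Flk cells were at least 2.16-fold above whole embryos of 18 hpf and at least 2.23-fold above those of 24 hpf. For the pair of 18 hpf the authors' values, with their common floor, gave 1.80-fold and no call. The potassium-dependent sodium-calcium exchanger slc24a4a was above the limit in Fli1 cells at 28 hpf, at 9.28, and in Flk cells, at 8.22, and was at least 2.02-fold higher in Fli1 cells at 28 than at 24 hpf, a call that none of the 3 other treatments gave. The chloride carrier slc12a2 stayed below the limit on every array.

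The monocarboxylate carriers move lactate and pyruvate together with protons. A probe of slc16a1b gave 9.41 and 9.78 in whole embryos, 9.00, 9.90 and 8.69 in Fli1 cells at 18, 24 and 28 hpf, and 9.19 in Flk cells. It was 2.32-fold lower in Fli1 cells at 28 than at 24 hpf, a call made under all treatments. The second slc16a1b probe above the limit, 07128, gave 8.47 and 8.96 at those stages, so the probes disagree. Of 5 slc16a3b probes, 3 were above the limit somewhere. Probe 13259 gave 9.77 in Flk cells and 7.24 to 7.92 elsewhere. Flk cells were at least 3.16-fold above whole embryos and at least 2.33-fold above Fli1 cells of 18 hpf, and at least 3.27-fold and 2.84-fold above those of 24 hpf. For the pairs of 18 hpf the other treatments made the same calls. The other slc16a3b probes did not share it: Flk cells gave 8.18 with probe 10781 and 7.45 with probe 08357, below their values in whole embryos at 18 hpf, 8.68 and 8.19. The sugar carriers slc2a3a and slc2a5 stayed between 7.37 and 8.55 on all 6 arrays, with no call.

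slc37a2 exchanges glucose 6-phosphate for phosphate across the membrane of the endoplasmic reticulum, and in zebrafish it shapes the phagosomes of microglia. Probe 08934 gave 11.00 and 11.12 in whole embryos, 10.00, 9.23 and 8.79 in Fli1 cells at 18, 24 and 28 hpf, and 11.03 in Flk cells. The Flk array lay between the whole-embryo arrays and the 3 Fli1 arrays lay lower, but in both other scalings all sorted arrays lay below whole embryos, with Flk cells -0.65 (75th percentile) and -0.75 (authors' values) from those of 18 hpf on the log2 scale. Fli1 cells were 3.71-fold below whole embryos at 24 hpf, and Flk cells 2.04-fold above Fli1 cells at 18 hpf, and both held under the other treatments. With the percentile scaling the first was 5.65-fold. Flk cells were 3.48-fold above Fli1 cells of 24 hpf. Probe 01042 gave 10.80 and 10.85 in whole embryos, 9.97, 9.86 and 10.05 in Fli1 cells, and 10.36 in Flk cells, a difference of -0.76 ± 0.26 (adjusted p = 0.212 in limma). Probe 06757 differed by 0.26 ± 0.24. Leukocyte markers summed to 11.61 and 12.90 in whole embryos and to 11.77, 13.86 and 14.25 in Fli1 cells at 18, 24 and 28 hpf, where probe 08934 was lower at each later stage. In these Fli1 arrays lyz gave 10.29, 13.44 and 13.70, and nccrp1 8.92, 10.58 and 12.01. The other markers did not rise at each stage: coro1a gave 9.23, 9.99 and 9.19, mpx 9.03, 8.96 and 9.66, and spi1b 8.73, 8.74 and 8.64. The marker lcp1 was below the limit on every array. The part of leukocytes in the difference was not tested. The organic ion, lipid and vitamin carriers, which include slc22a6l at 8.42 to 9.42 on all 6 arrays, had no 2-fold call.

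Lists of genes that work with these carriers were counted by the same rules. Of 16 genes of iron and heme handling found on the array, 14 were above the limit, and at 24 hpf 7 were at least 2-fold higher and 1 lower in Fli1 cells relative to whole embryos, against 3.88% higher and 6.16% lower of all probes. These included alas2, which starts heme synthesis in red cells, at 4.06-fold, urod, a later enzyme of the pathway, and the ferritin gene fth1a at 4.20-fold, with urod 7.50-fold higher in Fli1 cells at 18 hpf (4.42-fold and 3.97-fold in the other scalings). In Fli1 cells at 18 hpf 3 were higher and none lower, against 9.92% and 8.02% of all probes. Both other scalings gave 5 higher and 1 lower at 24 hpf, but 2 higher and 4 lower at 18 hpf. Of all probes, 3.09% (75th percentile) and 2.9% (authors' values) were higher and 9.73% and 14.5% lower at 24 hpf. At 18 hpf 3.83% and 1.71% were higher and 18.7% and 28.7% lower. None of the 14 was called by limma (5 at an unadjusted p under 0.05), with a median of 0.48, which was 0.25 with the percentile and 0.12, with none at that p, with the authors' values. Of all probes, 8.0% had a positive and 10.6% a negative difference at that p in limma. With the authors' values these shares were 3.85% and 15.8%. The erythroid marker sums were also higher there (14.48 against 11.38 at 18 hpf, 16.16 against 13.92 at 24 hpf), and alas2 and urod are in both lists. Of 27 glycolysis and lactate genes, 25 were above the limit. In Fli1 cells 4 of 20 tested were higher and 1 lower at 18 hpf, against 9.92% and 8.02% of all probes. At 24 hpf 1 of 23 was higher and 3 lower, against 3.88% and 6.16%. With the authors' values the counts at 18 hpf were 0 and 4 of 16, against 1.71% and 28.7% of all probes. hk1, the enzyme that traps glucose in the cell, was 3.50-fold higher at 24 hpf, and 3.35-fold to 3.55-fold higher under the 3 other treatments. At 18 hpf it was 2.02-fold higher, and none of the 3 other treatments called it. Of 19 sodium and calcium pump genes, 10 were above the limit. In Fli1 cells 2 of 6 tested were higher at 18 hpf and 1 of 9 was lower at 24 hpf, against 9.92% and 6.16% of all probes. Neither of the glycolysis and pump lists had a gene called by limma. At an unadjusted p under 0.05 there were 5 of 25 and 2 of 10, against 8.0% positive and 10.6% negative of all probes. The medians of 0.27 and 0.41 were -0.20 and near 0 with the authors' values.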

How the data were processed

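Per the labels' protocols, sorted cells and whole embryos were the source of RNA that was amplified, labelled with Cy3 and hybridised to 6 arrays. The deposited scanner files hold raw intensity for the spots and their surroundings at scan settings from 45 to 65 and, per the file headers, a flag score. The deposited value table holds an intensity that the authors scaled, on a linear scale and not centred, with column medians of 0.801, 0.816, 0.922, 0.856, 0.922 and 0.869 in the order of the arrays in the report, whole embryos first and Flk cells last. The scanner, the image software and the meaning of the flags are not given in the sources used here. For setting 55, normexp (offset 50) and quantile normalization in limma 3.58.1 (R 4.3.3) gave log2 intensities, and 68 flagged probes were left out. Where the authors' scaled values were used, values under the highest of the 6 arrays' control limits were raised to it. Differences and folds of dim probes shrink there. Gene names came from the RefSeq table of assembly GRCz12tu (7702 probes by accession, 24 by an older one) or from the deposited descriptions.

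Sorted and whole-embryo arrays were compared with lmFit and eBayes (4 residual degrees of freedom, threshold 0.05). That p-value measures the spread between single arrays of different stages and lines. The test was checked on simulated data. A fold bound uses the dim probe's own signal or the lowest signal above the limit on its array, whichever is higher. Named probes were those called by limma, up to 8 per direction and pair, 19 names found of 57 of textbook interest, and the probe of the highest mean in each class. Outside this rule, slc25a28, slc48a1b, slc25a3 and slc37a1 were named after their values were seen, and the gene lists and groups of probes were counted under other scalings after the first counts were known. The members and lists were chosen with earlier results of these data known. The number of arrays limits the precision.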

Additional observations from a re-analysis of the deposited data

How the results depend on the processing

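The solute carrier counts changed most with the scaling. With 75th percentile scaling, limma called 0 higher and 2 lower, and Fli1 cells against whole embryos at 18 hpf gave 1 higher and 12 lower and at 24 hpf 7 lower. Flk cells then had 5 lower against whole embryos and 0 lower against Fli1 cells, Fli1 cells at 24 against 18 hpf 3 higher and 1 lower, and at 28 against 24 hpf 1 higher and 9 lower. All probes moved too: 12.4% were lower in Flk cells against whole embryos, and 11.8% higher and 1.12% lower in Fli1 cells at 24 against 18 hpf. With the authors' scaled values the same comparisons gave 3 lower in limma, 0 higher and 16 lower, 7 lower, 1 higher and 7 lower, 0 lower, 8 higher and 0 lower, and 1 higher and 9 lower, and whole embryos at 24 against 18 hpf had 2 lower. For whole embryos 8.29% of all probes were lower there, and the other shares are given with the pairs above. Of all probes, limma called 113 of 7602 lower with 75th percentile scaling and 185 of 6262 with the authors' values. Without background correction, Flk against Fli1 cells had 1 lower, Fli1 cells at 28 against 24 hpf 2 higher, and whole embryos 1 higher and 0 lower. The shares of all probes were 2.85% lower, 6.78% higher, and 4.63% higher and 3.11% lower, in that order. The 99th percentile limit left 0 lower for Fli1 cells at 18 hpf, 1 higher for Flk cells against each of whole embryos and Fli1 cells, 1 lower for Fli1 cells at 24 against 18 hpf, 2 lower at 28 against 24 hpf and 0 lower in whole embryos. In that order the shares of all probes were 6.19% lower, 6.72% and 2.72% higher, and 4.41%, 13.2% and 3.77% lower. Probes above the limit on both arrays of a pair gave 0 lower for Fli1 cells at 18 hpf, 0 higher and 1 lower for Flk cells against whole embryos, 1 higher against Fli1 cells and 0 lower in whole embryos. With the Flk array set against 24 hpf, 1 was lower than in Fli1 cells, slc25a5 probe 09063, in place of slc17a9b and slc30a1a, and against whole embryos slc25a20 and slc39a7 were lower in place of slc25a3b and slc31a1. For this setting and the one before it no share of all probes is given. Their counts therefore cannot be set against those of all probes. Without a filter on dim probes limma called 1 of 151 lower, slc25a3b (adjusted p = 0.0499), against 68 of 13999 probes in all. The sorted values of that slc25a3b probe lie below the limit. Leaving out any of the 6 arrays gave 0 higher and 0 lower in limma, with the smallest adjusted p for a solute carrier probe between 0.0859 and 0.206. Of 96 differences of named probes under the other scalings and background setting, 70 moved by less than the highest control-spot SD (0.47, before quantile normalization) and 24 by more. The other 2 reversed: slc25a5 probe 11494 in Fli1 cells at 18 hpf, at -0.70 with the percentile and -0.96 with the authors' values. In 31 of the 96 the 2-fold call was lost. The cause was not tested. No paired analysis was possible because the labels give no replicate numbers that pair arrays. With stage as a term limma called 0 higher and 0 lower, with a smallest adjusted p of 0.0770 (Flk array at 18 hpf) and 0.158 (at 24 hpf).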
